A study of Mus musculus with 4 samples.

Results

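The collagen chains are the genes whose symbol is Col followed by a chain type and an alpha chain number. Of the 54446 genes in the deposited table, 43 were taken by this rule, with Col17a1 left out. They fall into 11 fibrillar chains, 6 basement membrane chains of type IV and 26 other chains. RNA was sequenced from 4 cultures of wild type C57BL/6 mouse mammary gland cells, 1 library for each culture. Cells had been sorted by flow cytometry as basal (the outer, myoepithelial layer) or luminal (the inner layer that faces the duct), grown in 3D in growth factor-reduced Matrigel, a basement membrane extract, under a medium with ITS and EGF, and given 100 μM baicalin, a flavonoid of Scutellaria roots, or DMSO as the control. The sort removed cells with CD31, CD45 or TER119, which mark endothelial and blood cells, and separated the layers by CD29 and CD24. The study's methods give an age range for the females whose glands were taken, and the age and culture passage behind each of these 4 libraries are not given in the sources used here. The comparison asks which collagen genes differ with baicalin in each culture and between the libraries labelled basal and luminal.

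Collagens are proteins of 3 alpha chains wound into a triple helix rich in glycine and proline. Fibrillar chains, such as those of types I, III, V and XI, build the tensile fibrils of connective tissue, type IV chains build the sheet-like network of basement membranes, and FACIT chains (fibril-associated collagens with interrupted triple helices) sit on the surface of fibrils. In the mammary gland the basement membrane lies under the basal layer, and the fibrillar collagens of the surrounding stroma are mostly made by fibroblasts.

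Levels are given as FPKM (fragment counts divided by exon length and by library depth), a scale on which genes can be compared. A difference is log2((first FPKM + 1)/(second FPKM + 1)), and a chain is called higher or lower where this is beyond 1 in size. With 1 library per group there was no replicate check, and no test between groups was made. Ratios of FPKM carry 95% intervals computed from the fragment counts, which were recovered from the FPKM, so these intervals hold counting error and nothing else. The libraries held 19853375 and 20282997 fragments under the label basal with DMSO and baicalin, and 19356118 and 20648786 under the label luminal, and a single fragment per kb of exon added 0.0484 to 0.0517 FPKM.

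The labels went against the markers of the layers. Of 10 basal markers, 9 were higher beyond the threshold in the library labelled luminal than in that labelled basal with DMSO, and 10 of 10 with baicalin, against 4.71% and 5.24% of all genes tested. Krt5, a basal keratin, was at 128 and 3.01 FPKM in the libraries labelled basal with DMSO and baicalin, and at 2015 and 2415 FPKM in those labelled luminal. Acta2, the smooth muscle actin of myoepithelial cells, was at 7.66 and 3.49 FPKM under the label basal, and at 555 and 417 FPKM under the label luminal. Trp63, a transcription factor of basal cells, was at 6.01 and 0.306 FPKM against 25.2 and 27.0 FPKM. All 10 luminal markers had a lower value in the libraries labelled luminal with either agent, 6 and 8 of them beyond the threshold, against 3.86% and 2.99% of all genes. Krt8, a luminal keratin, was at 1573 and 754 FPKM under the label basal and at 383 and 324 FPKM under the label luminal. Both marker sets stood on the side opposite to the label, so each library is named below by its label alone, and a comparison between the labels is not given as one between layers. The paper's methods state that the purity of sorted cells was routinely checked, while the RNA came from cultures grown from such cells. Why the markers stood opposite to the labels was not tested. In whole cultures, fewer cells of a type and less RNA per cell cannot be told apart.

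Collagen genes varied over a wide range of levels. Of the 43 chains, 13 reached 5 FPKM in a library and 26 reached 1 FPKM, while 17 stayed under 1 FPKM in all 4. Col19a1, a FACIT chain, was listed at 0 in all 4 libraries. The summed FPKM of all chains was 287 and 225 in the libraries labelled basal with DMSO and baicalin, and 557 and 382 in those labelled luminal. Collagens thus took the largest sum in the library labelled luminal with DMSO and the smallest in that labelled basal with baicalin. Of the 26 chains that reached 1 FPKM, 13 were highest in the former and 17 were lowest in the latter. Filtering on an FPKM above 0 in all 4 libraries kept 36 chains and 17787 genes for the counts below.

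**Figure D1:**
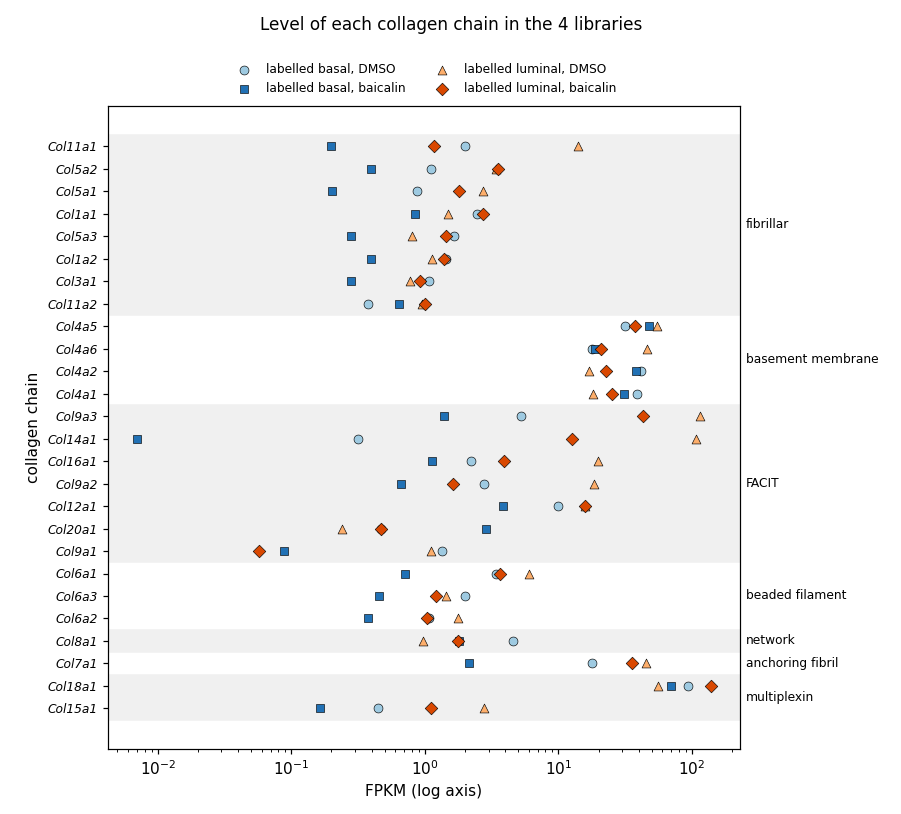
FPKM (log axis) of the 26 collagen chains that reached 1 FPKM, 1 row per chain and 1 point per library, grouped by collagen class. The 4 type IV chains plotted and Col18a1 were above 10 FPKM in all 4 libraries, and most fibrillar chains lay farthest left in the library labelled basal with baicalin.

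The classes took different shares. Fibrillar chains summed to 11.1 and 3.28 FPKM under the label basal with DMSO and baicalin, and to 25.9 and 14.3 FPKM under the label luminal. In the 4 libraries they held 1.46% to 4.65% of the collagen FPKM. Type IV chains summed to 130 and 136 FPKM under the label basal, and to 136 and 106 FPKM under the label luminal. Their sum was thus the steadiest of the large classes, while their share of the collagen FPKM ran from 24.4% to 60.4%. FACIT chains summed to 22.3 and 9.99 FPKM under the label basal, and to 279 and 77.8 FPKM under the label luminal. They made up 50.1% of the collagen FPKM in the library labelled luminal with DMSO and 4.45% in that labelled basal with baicalin.

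**Figure D2:**
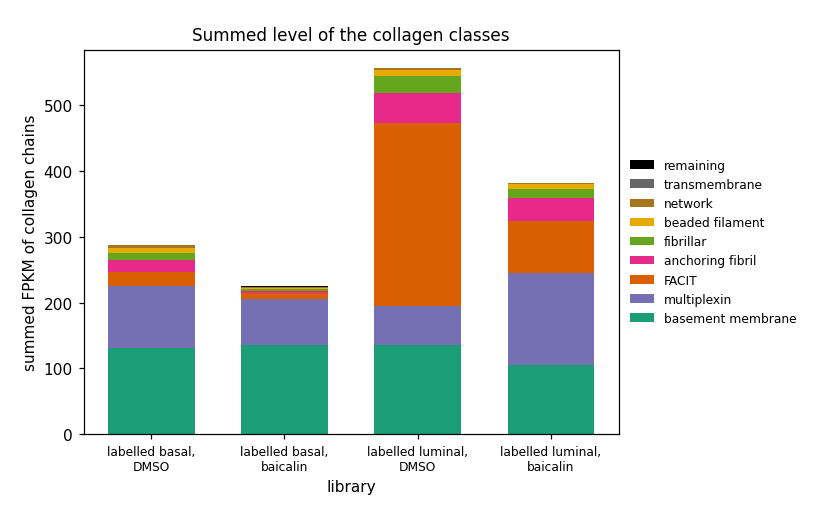
Summed FPKM of the collagen chains in each of the 4 libraries, stacked by class. The type IV part at the bottom lay between 106 and 136 FPKM, and the FACIT part reached 279 FPKM in the library labelled luminal with DMSO.

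Sequence upstream of the start is shown for 3 chains that were lower with baicalin, Col11a1 in both cultures, Col7a1 under the label basal and Col4a6 under the label luminal. Of the chains chosen by level, by type IV or by the size of their difference, these are the ones with an entry whose window of 250 bases before the RefSeq start (GRCm38.p6) held no annotated exon base. They lie at chr3:114030290-114030539 on the plus strand, chr9:108953336-108953585 on the plus strand and chrX:141474077-141474326 on the minus strand. Capitals mark the letters of 4 motifs, each searched on both strands. The core promoter motif known as the TATA box was searched as TATAAA. The CCAAT box, which takes its name from its letters, is bound by NF-Y. The box bound by Sp1 and its relatives, the GC box, was searched as GGGCGG. Letters of the SOX type, bound by factors of the Sox family, were searched as ACAAAG.
Col11a1: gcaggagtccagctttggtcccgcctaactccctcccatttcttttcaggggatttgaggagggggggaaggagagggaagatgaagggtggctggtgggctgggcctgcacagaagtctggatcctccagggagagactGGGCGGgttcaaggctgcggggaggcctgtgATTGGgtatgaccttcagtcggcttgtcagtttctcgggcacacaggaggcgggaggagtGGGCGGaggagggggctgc
Col7a1: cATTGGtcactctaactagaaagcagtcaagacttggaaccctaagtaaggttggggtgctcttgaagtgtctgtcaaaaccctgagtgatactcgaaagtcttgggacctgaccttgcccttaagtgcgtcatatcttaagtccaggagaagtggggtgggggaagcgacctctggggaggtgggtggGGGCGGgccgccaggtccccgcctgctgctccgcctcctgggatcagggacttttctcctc
Col4a6: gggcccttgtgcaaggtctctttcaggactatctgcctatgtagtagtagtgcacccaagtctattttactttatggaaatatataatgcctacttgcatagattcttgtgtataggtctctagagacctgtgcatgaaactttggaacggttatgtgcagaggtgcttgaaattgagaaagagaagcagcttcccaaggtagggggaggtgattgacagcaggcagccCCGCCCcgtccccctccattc
The Col11a1 window held 2 GC boxes and 1 CCAAT box, the Col7a1 window 1 of each, and the Col4a6 window 1 GC box. No motif overlapped another in these 3 windows. GC content was 62.4%, 56.4% and 47.6%. Of the 43 chains, 34 had an entry in the RefSeq table, with 37 windows in all. Of these, 22 held a GC box, 12 a CCAAT box, 4 a TATA box and 4 a SOX-type motif. Among all 32851 windows of the same length, 32.7% held a GC box, 33.8% a CCAAT box, 12.4% a TATA box and 16.5% a SOX-type motif. A match is a stretch of letters and was not tested as a site.

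In the libraries labelled basal, 9 of the 36 chains tested were lower with baicalin and 1 was higher. Across all genes tested, 3.33% were lower and 2.15% were higher. The median difference was -0.41 for the chains and 0.01 for all genes tested. Of the fibrillar chains, 2 of 10 were lower, of the type IV chains 0 of 6, and of the other chains 7 of 20. Low chains weigh little once 1 FPKM is added. With no FPKM added, 19 chains were lower and 2 were higher, against 11.5% and 9.52% of all genes. In the libraries labelled luminal, 7 of the 36 chains were lower with baicalin and 1 was higher, against 1.59% and 2.37% of all genes tested. The median difference was -0.10 for the chains and -0.02 for all genes tested. Of the fibrillar chains, 1 of 10 was lower, of the type IV chains 1 of 6, and of the other chains 5 of 20. With no FPKM added, 13 chains were lower and 2 were higher, against 8.64% and 8.76% of all genes.

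**Figure D3:**
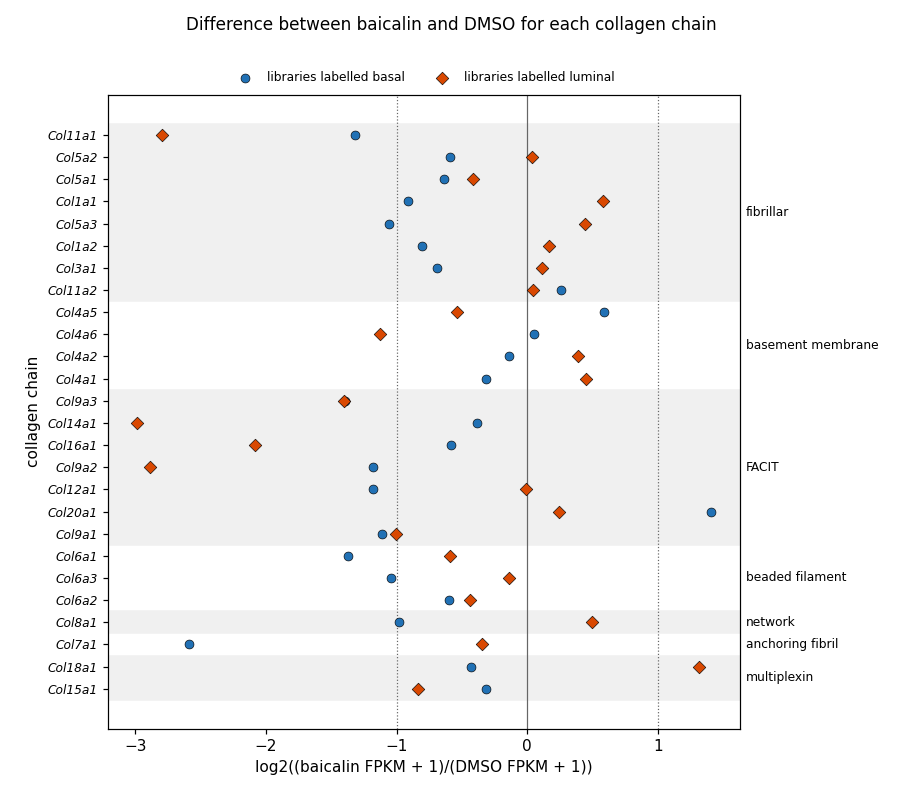
Difference between baicalin and DMSO, log2((baicalin FPKM + 1)/(DMSO FPKM + 1)), for the 26 chains that reached 1 FPKM, with 1 point for the libraries labelled basal and 1 for those labelled luminal. Solid line, no difference. Dotted lines, the threshold of 1. Col7a1 stood farthest left under the label basal, and Col14a1, Col9a2 and Col11a1 under the label luminal.

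A group of 4 chains was lower beyond the threshold in both cultures, which share no library. These were Col9a1, Col9a2, Col9a3 and Col11a1, 44.4% of the chains that were lower under the label basal and 57.1% of those under the label luminal. Of all genes tested, 81 were lower in both, 13.7% and 28.7% of the genes lower in each. Col9a1 lay at the threshold under the label luminal, at -1.0046, and fell inside it when differences were centred on the median of all genes, which left 6 chains lower there. Type IX and type XI collagens are best known from cartilage, where they form a joint fibril with type II collagen.

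Col11a1, a fibrillar chain that helps to set fibril width, was at 1.99 FPKM with DMSO against 0.197 FPKM with baicalin under the label basal, and at 14.1 against 1.17 FPKM under the label luminal. The ratio of baicalin to DMSO was 0.0990 (95% interval 0.0728 to 0.132) and 0.0831 (0.0737 to 0.0934). The highest of its 4 levels was thus that of the library labelled luminal with DMSO, and the lowest that of the library labelled basal with baicalin. Col9a3, a chain of type IX, measured 5.26 and 1.38 FPKM under the label basal, and 115 and 43.1 FPKM under the label luminal. Its differences with baicalin were -1.39 and -1.40. The exons of Col9a3 share 6.07% of their bases with Tcfl5 on the opposite strand, and whether counting used strand is not given in the sources used here. Col9a2, the partner of Col9a3 in type IX, measured 2.78 and 0.669 FPKM under the label basal, and 18.4 and 1.63 FPKM under the label luminal. The differences were -1.18 and -2.89. Col9a1, the remaining chain of type IX, was low throughout, at 1.35 and 0.0876 FPKM under the label basal and 1.12 and 0.0573 FPKM under the label luminal. Only 9 and 6 fragments lay behind its baicalin values.

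The other FACIT chains differed between the cultures. Col14a1, which binds the surface of fibrils, was at 108 FPKM in the library labelled luminal with DMSO and at 12.7 FPKM in its baicalin partner. DMSO exceeded baicalin 8.47 times (95% interval 8.07 to 8.90), a difference of -2.99. Under the label basal it was at 0.316 FPKM with DMSO, and 1 fragment stood behind 0.0070 FPKM with baicalin, so that the ratio of baicalin to DMSO of 0.0222 had an interval of 0.000551 to 0.131. Both levels under the label basal were thus far below those under the label luminal, and the log2 difference under the label basal, -0.39, stayed inside the threshold. Col16a1, a FACIT chain found near basement membranes, was at 2.20 and 1.13 FPKM under the label basal, and at 19.8 and 3.91 FPKM under the label luminal, with differences of -0.59 and -2.08. Col12a1, a FACIT chain of tissues under tension, was at 9.94 and 3.82 FPKM under the label basal, a difference of -1.18. Under the label luminal it was at 15.9 and 15.8 FPKM, a ratio of baicalin to DMSO of 0.991 (95% interval 0.952 to 1.03). Col20a1, a FACIT chain, was the 1 chain called higher under the label basal, at 0.470 FPKM with DMSO and 2.90 FPKM with baicalin, a difference of 1.41. Under the label luminal it was at 0.241 and 0.471 FPKM.

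Among the chains under 1 FPKM in all 4 libraries, Col26a1 and Col25a1 were far apart in ratio in both cultures. Col26a1 had 1 fragment with DMSO and 68 with baicalin under the label basal, at 0.0062 and 0.410 FPKM, a ratio of 66.6 (95% interval 11.6 to 2667). It had 1 and 32 fragments under the label luminal, at 0.0063 and 0.190 FPKM. Col25a1, a transmembrane collagen, had 23 fragments with DMSO and 1 with baicalin under the label basal, and 20 and 1 under the label luminal. With 1 FPKM added both chains stayed inside the threshold, with differences of 0.49 and 0.24 for Col26a1 and of -0.12 and -0.11 for Col25a1.

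Chains of the basement membrane zone did not move together. Col7a1, which forms the anchoring fibrils that tie the basement membrane to the tissue below, was at 17.9 FPKM with DMSO and 2.14 FPKM with baicalin under the label basal, where DMSO exceeded baicalin 8.35 times (95% interval 7.56 to 9.23). Its difference, -2.59, was the largest of any chain under that label with 1 FPKM added. With none added it was -3.06, and Col26a1, Col14a1, Col25a1, Col9a1 and Col11a1 differed by more, Col14a1 by -5.50 and Col11a1 by -3.34. Under the label luminal it was at 45.2 and 35.3 FPKM, a difference of -0.35. Col18a1, a multiplexin whose C-terminal fragment is endostatin, went another way. It was at 93.7 and 69.2 FPKM under the label basal, and at 55.2 and 139 FPKM under the label luminal, with differences of -0.43 and 1.31. It was the 1 chain called higher under the label luminal, with a ratio of baicalin to DMSO of 2.51 (95% interval 2.45 to 2.58). Col18a1 was also the most abundant chain in 3 of the 4 libraries, the exception being that labelled luminal with DMSO, where Col9a3 led.

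The type IV chains were read as pairs of neighbouring genes transcribed away from each other. Col4a1 and Col4a2, the common chains of basement membranes, overlap by 22 bases at their starts on chromosome 8. Col4a1 was at 39.0 and 31.1 FPKM under the label basal, and at 18.2 and 25.1 FPKM under the label luminal. Col4a2 was at 41.9 and 38.0 FPKM under the label basal, and at 17.0 and 22.6 FPKM under the label luminal. Both were thus lower with baicalin under the label basal, by -0.32 and -0.14, and higher under the label luminal, by 0.45 and 0.39, all inside the threshold. The ratio of Col4a1 to Col4a2 ran from 0.819 (95% interval 0.787 to 0.852) under the label basal with baicalin to 1.11 (1.06 to 1.17) under the label luminal with baicalin.

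Col4a5 and Col4a6, chains of a type IV network that is restricted to some basement membranes, start 1309 bases apart on chromosome X. Col4a5 was at 31.5 and 47.9 FPKM under the label basal, and at 54.4 and 37.2 FPKM under the label luminal, with differences of 0.59 and -0.54. Col4a6 was at 17.9 and 18.7 FPKM under the label basal, and at 46.4 and 20.7 FPKM under the label luminal, with differences of 0.06 and -1.13. It was the 1 type IV chain called lower with baicalin. The ratio of Col4a5 to Col4a6 was 1.76 and 2.57 under the label basal, and 1.17 and 1.80 under the label luminal, higher with baicalin than with DMSO under both labels. Col4a3 and Col4a4, which form a network of their own with Col4a5 in the kidney, start 72 bases apart on chromosome 1 and were near the limit of detection. Col4a3 ranged from 0.0259 to 0.0544 FPKM over the 4 libraries, and Col4a4 from 0.0091 to 0.0807 FPKM, with 2 to 17 fragments behind each value of Col4a4. C430014B12Rik, on the opposite strand, shares 5.65% of the exon bases of Col4a3.

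**Figure D4:**
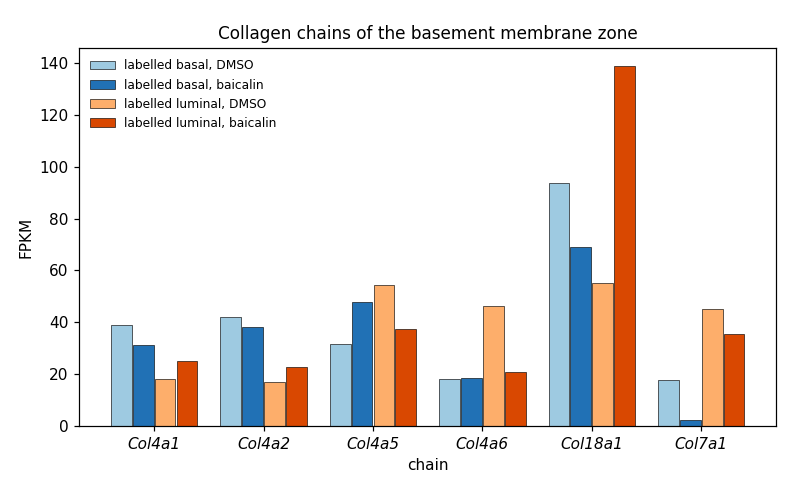
FPKM of the 4 expressed type IV chains, Col18a1 and Col7a1, 1 bar per library, with no error bars because each group is 1 library. Col4a1 and Col4a2 were higher under the label basal, Col4a6 and Col7a1 peaked in the library labelled luminal with DMSO, and Col18a1 in that labelled luminal with baicalin.

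The fibrillar chains other than Col11a1 were low, with a highest level of 3.53 FPKM. Col1a1, the main chain of type I collagen, was at 2.47 and 0.841 FPKM under the label basal, and at 1.504 and 2.74 FPKM under the label luminal. Its ratio to Col1a2, which completes the type I triple helix, was 1.34 to 2.14 in the 4 libraries. Col5a3, a minor chain of type V, was lower beyond the threshold under the label basal, at 1.66 FPKM with DMSO and 0.282 FPKM with baicalin. Of the 10 fibrillar chains tested, 9 had a lower value with baicalin under the label basal, and 3 under the label luminal. Of all 17787 genes tested, 8728 and 9670 had a lower value. The 9 include Col2a1, with 4 fragments in each library. The median difference of the 10 was -0.67 and 0.04. Col11a2, the partner of Col11a1 in type XI, was the exception under the label basal, at 0.376 and 0.642 FPKM, and was at 0.945 and 1.007 FPKM under the label luminal. With Col11a1 left out, the summed fibrillar FPKM with baicalin was 0.338 of that with DMSO under the label basal, and 1.11 of it under the label luminal, where the ratio with Col11a1 was 0.552. The direction of the fibrillar sum under the label luminal thus turned on Col11a1.

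Type VI chains form beaded filaments between cells and fibrils. Col6a1, the most abundant of them, was at 3.42 and 0.709 FPKM under the label basal, a difference of -1.37, and at 6.02 and 3.65 FPKM under the label luminal, a difference of -0.59. Col6a3 was lower beyond the threshold under the label basal, where DMSO exceeded baicalin 4.41 times (95% interval 3.58 to 5.48). The sum of the type VI chains with DMSO was 4.21 times that with baicalin under the label basal (95% interval 3.60 to 4.92), and 1.53 times it under the label luminal (1.40 to 1.68).

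Between the labels, 10 of the 36 chains were higher under the label luminal with DMSO and 3 were lower, against 4.71% and 3.86% of all genes tested. With baicalin 9 were higher and 1 was lower, against 5.24% and 2.99%, and with no FPKM added 23 were higher and 3 were lower, against 14.8% and 11.3%. The median differences of the chains were 0.34 and 0.58, and those of all genes tested 0.01 and -0.03. These comparisons share their libraries with the comparisons of baicalin and DMSO. Col14a1 stood farthest apart with DMSO, at a difference of 6.37, followed by Col9a3 at 4.22 and Col16a1 at 2.70. With baicalin Col9a3 was farthest apart at 4.21, followed by Col14a1 at 3.77 and Col7a1 at 3.53. This order depends on the FPKM added, since with 0.1 FPKM added Col14a1 was at 6.91 and Col9a3 at 4.87. On TPM, levels rescaled to the same sum in each library and given 1 TPM before log2, they were at 5.43 and 4.64. There the scaling and the amount added changed together. The Col14a1 value under the label basal with baicalin rests on 1 fragment. Lower under the label luminal with DMSO were Col4a1, Col4a2 and Col8a1, a chain of network-forming type VIII collagen, at -1.06, -1.26 and -1.49. With baicalin it was Col20a1, at -1.41.

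Markers of the layers moved with some of these values. With baicalin under the label basal, 4 of 10 basal markers (Krt5, Krt14, Krt17 and Trp63) were lower beyond the threshold, and the list summed to 1761 FPKM with DMSO and 479 FPKM with baicalin, most of it Krt14. Among all genes tested 3.33% were lower. Leaving out Krt14, a basal keratin, the sums were 267 and 62.1 FPKM. Under the label luminal 3 of 10 basal markers (Cnn1, Tagln and Oxtr) were lower and Krt17 was higher, against 1.59% and 2.37% of all genes, with sums of 5404 and 7199 FPKM. The luminal list, led by Krt8 except for Krt18 under the label basal with baicalin, summed to 4413 and 3060 FPKM under the label basal, and to 1271 and 1075 FPKM under the label luminal. Under the label basal Krt8 was the 1 luminal marker lower beyond the threshold and 0 were higher, while 3 of the 10 had a higher value, and the median level of the list was 130 FPKM with DMSO and 136 FPKM with baicalin. Cldn4, a claudin of tight junctions, was at 273 and 476 FPKM there. Cldn4 was higher beyond the threshold under the label luminal, by 1.55, and Krt19, a luminal keratin, was lower there, at -2.03. The part of both lists in the collagen differences was not tested.

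Markers of other cell types were present at various levels. The 10 fibroblast markers summed to 43.1 and 15.0 FPKM under the label basal, and to 284 and 171 FPKM under the label luminal, and nearly all of each sum was Postn. Postn, a matricellular protein that also stands on the list of fibril partners, was the most abundant of the fibroblast markers in all 4 libraries. Without it the sums were 2.27 and 1.499 FPKM under the label basal, and 7.80 and 3.80 FPKM under the label luminal. Pdgfra, a receptor on the fibroblast list, was at 0.593 and 0.630 FPKM under the label basal, and at 6.30 and 1.67 FPKM under the label luminal. It thus made up most of the 7.80 FPKM left without Postn under the label luminal with DMSO. The median level of the fibroblast list was 0.205 and 0.056 FPKM under the label basal, and 0.088 and 0.214 FPKM under the label luminal. Of the 8 fibroblast markers tested, 3 had a higher value with baicalin and 5 a lower one under the label basal, and 6 and 2 under the label luminal, with medians of -0.14 and 0.03. Pdgfrb was between 0.477 and 1.09 FPKM. Pi16 and Twist2 were listed at 0 under the label basal with baicalin, and Twist2 under the label luminal with baicalin. Endothelial markers summed to 1.80 and 2.49 FPKM under the label basal, and to 3.19 and 5.65 FPKM under the label luminal, with Pecam1 between 0.261 and 1.28 FPKM. The immune marker Ptprc was at most 0.0138 FPKM, though the immune list summed to 54.6 FPKM under the label basal with baicalin, of which Cd68, a lysosomal protein of macrophages, was 51.5 FPKM. Lyz2, a lysozyme of myeloid cells, led that list under the label basal with DMSO at 8.84 FPKM, and was at 2.17, 0.903 and 2.61 FPKM in the libraries labelled basal with baicalin and luminal with DMSO and baicalin. Adipocyte markers summed to 20.9 FPKM under the label luminal with DMSO and to 8.73 FPKM with baicalin, and to 3.37 and 5.43 FPKM under the label basal. Fabp4 led that list under the label luminal and Lipe under the label basal. Pericyte markers summed to 27.6 and 20.7 FPKM under the label basal, and to 91.8 and 99.7 FPKM under the label luminal. Notch3, which led under the label basal, and Mcam, which led under the label luminal, made up most of each sum. The median level of the pericyte list was 0.138 and 0.108 FPKM under the label basal, and 0.216 and 0.233 FPKM under the label luminal, with Higd1b at 0 in all 4. Schwann cell markers summed to 85.4, 94.6, 63.6 and 57.6 FPKM, led by Erbb3, which epithelial cells also make. Sox10, a transcription factor on that list, was at 23.6 and 22.8 FPKM under the label basal, and at 12.6 and 9.17 FPKM under the label luminal. The part of these markers in the collagen differences was not tested.

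The machinery around the chains was read from lists of related genes, whose counts stand beside 2.15% of all genes higher and 3.33% lower under the label basal, and 2.37% and 1.59% under the label luminal. Of 21 genes for collagen synthesis, 0 were higher and 1 was lower with baicalin under the label basal, and 1 was higher and 1 was lower under the label luminal, with medians of -0.02 and 0.00. The lower gene under the label luminal was Colgalt2, which glycosylates collagen and was picked out by its value, at 2.68 and 0.251 FPKM. Serpinh1, the collagen chaperone of the endoplasmic reticulum, was at 152 and 121 FPKM under the label basal, and at 196 and 209 FPKM under the label luminal. P3h2, a prolyl 3-hydroxylase, was at 7.66 and 1.52 FPKM under the label basal, a difference of -1.78, and at 4.51 and 3.38 FPKM under the label luminal. P4ha2, a catalytic subunit of prolyl 4-hydroxylase, was at 3.09 and 5.95 FPKM under the label basal, and at 1.13 and 3.97 FPKM under the label luminal, a difference of 1.22. P4ha1, the other main catalytic subunit, and Plod2, a lysyl hydroxylase, differed by 0.13 and 0.30 under the label basal, and by 0.18 and 0.33 under the label luminal. Fkbp10, a prolyl isomerase, was at 1.54 and 0.806 FPKM under the label basal, and at 6.65 and 13.1 FPKM under the label luminal. Serpinh1, P4ha1 and Plod2 were thus inside the threshold in both cultures.

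Of 14 genes for processing and crosslinking, 1 was higher and 1 was lower in each culture, with medians of -0.21 and 0.00. Among all genes 2.15% were higher and 3.33% lower under the label basal, and 2.37% and 1.59% under the label luminal. The lower gene was Pcolce2, an enhancer of procollagen processing, under the label basal, and Adamts3, a proteinase of the procollagen N-terminus, under the label luminal, with differences of -1.08 and -1.20. The higher gene was Lox in both. Lox, lysyl oxidase, which crosslinks collagen, was at 4.04 and 12.04 FPKM under the label basal, a ratio of 2.98 (95% interval 2.66 to 3.36), and at 1.24 and 11.1 FPKM under the label luminal, a ratio of 9.04 (7.45 to 11.1). Bmp1, a proteinase that removes the C-terminal propeptide of fibrillar procollagens, was at 34.8 and 18.5 FPKM under the label basal, and at 25.0 and 30.9 FPKM under the label luminal. Loxl4, a relative of Lox, was at 15.3 and 13.3 FPKM against 1.94 and 4.03 FPKM.

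Of 13 fibril partners tested out of 14 listed, 0 were higher and 4 were lower under the label basal, and 2 were higher and 1 was lower under the label luminal. Their medians were -0.50 and 0.20. The shares of all genes were 2.15% higher and 3.33% lower under the label basal, and 2.37% and 1.59% under the label luminal. The 4 were Tnc, Sparc, Postn and Vcan, a large proteoglycan, and of the genes called under the label luminal Tnc and Thbs1, a matricellular protein, were higher and Bgn lower. Tnc, a matricellular protein, was at 111 and 29.6 FPKM under the label basal, and at 52.0 and 133 FPKM under the label luminal. Sparc, which binds collagen outside the cell, was at 8.10 and 2.03 FPKM under the label basal, and at 174 and 126 FPKM under the label luminal. Bgn, a small proteoglycan of fibrils, was at 5.95 and 4.16 FPKM under the label basal, and at 87.7 and 27.8 FPKM under the label luminal, a difference of -1.63.

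Of 8 collagen receptors tested out of 10 listed, 0 were called under the label basal and 1 was higher under the label luminal, with medians of -0.09 and 0.13, where 2.37% of all genes were higher under the label luminal. That gene was Itga2, the alpha subunit of a collagen-binding integrin, at 6.81 and 16.6 FPKM, and at 7.16 and 11.9 FPKM under the label basal. Its beta subunit Itgb1 was at 348 and 243 FPKM under the label basal, and at 207 and 232 FPKM under the label luminal. Itga1, of another collagen-binding integrin, was at most 0.375 FPKM. Ddr1, a receptor tyrosine kinase for collagen, was at 39.9 and 37.4 FPKM under the label basal, and at 39.3 and 43.8 FPKM under the label luminal. Its relative Ddr2 was at 1.08 and 3.04 FPKM under the label luminal, a difference of 0.96 that stayed inside the threshold, and was at 0.218 and 0.506 FPKM under the label basal.

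Of 14 other basement membrane genes tested out of 15 listed, 1 was higher and 0 were lower under the label basal, and 2 were higher and 0 were lower under the label luminal. Their medians were 0.01 and 0.32, beside 2.15% and 2.37% of all genes called higher. Nid1, which links laminin to type IV collagen, was higher in both cultures, at 5.21 and 14.6 FPKM under the label basal and at 9.44 and 60.0 FPKM under the label luminal, with differences of 1.33 and 2.55. Lama3, a laminin chain that epithelial cells use for anchorage, was at 15.4 and 11.3 FPKM under the label basal, and at 30.0 and 76.8 FPKM under the label luminal. Lamb3, its beta partner, differed by -0.22 and 0.55, and Lama4, another laminin alpha chain, by -0.92 and 0.57. Lama5 was at 67.7 and 120 FPKM under the label basal, and at 33.0 and 39.3 FPKM under the label luminal. Hspg2, the proteoglycan perlecan, differed by -0.36 and 0.10. Nid1 was thus higher with baicalin under both labels, while the type IV chains that it links to were inside the threshold but for Col4a6.

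**Figure D5:**
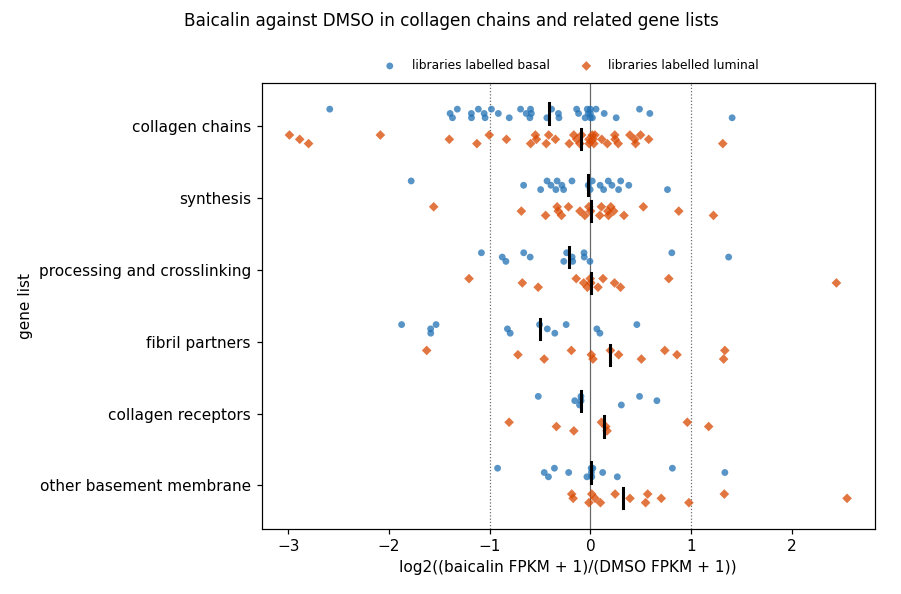
Difference between baicalin and DMSO, log2((baicalin FPKM + 1)/(DMSO FPKM + 1)), for the tested members of the collagen chains and of 5 related gene lists, with 1 point per gene and a black bar at the median. Dotted lines mark the threshold of 1. The medians of the collagen chains were -0.41 and -0.10, and the genes for synthesis had medians near 0.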

How the data were processed

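Per the paper's methods, the authors mapped the reads with HISAT2 to GRCm38, and used featureCounts v1.5.0 with the Ensembl release 94 annotation to make the deposited FPKM. The submitters' processing notes also name Bowtie 0.12.2 and the genome build mm8, whose roles are not given in the sources used here. Stranded libraries were made, but whether featureCounts used strand is not given there either.

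Exon lengths from GENCODE mouse release 21 (54409 of 54446 genes) turned the FPKM of low genes into whole fragments for 98.9% to 99.1% of them, within 0.1 of a fragment, which gave the depths. With 1 library per group, no count test was run. Genes above 0 in all 4 libraries were kept (17787), 1 FPKM was added before log2, and ratios have exact Clopper-Pearson intervals, or normal intervals on the log ratio for sums. Chains were named if they reached 5 FPKM in a library, belonged to type IV, or had 1 of the 3 largest differences in a comparison among chains that reached 1 FPKM. For the other lists, the 2 members with the largest difference per baicalin comparison at 5 FPKM or more and a set of central genes were named. Col1a1, Col5a3, Col6a3, Col8a1, Col9a1, Col11a2, Col2a1, Col25a1, Col26a1, Cldn4, Krt19, Cd68, Lyz2, Sox10, Colgalt2, Col1a2 and Col3a1 were singled out after their values were seen. Pcolce2, Adamts3, Vcan and Thbs1 were named because they were called, also after their values were seen. The members and lists were chosen with earlier results of these data known. The planned protein features were not analysed here. The alternatives were a pseudocount of 0.1 FPKM or none, other filters, TPM, centring on the median, a threshold of 2, and sums without the chain of highest mean FPKM. For differences on TPM, 1 TPM was added, a smaller amount than 1 FPKM, so 2 choices changed together. The computation was tested on simulated data. Computing used scipy 1.17.1, pandas 2.3.3 and numpy 2.4.6 under Python 3.11.15, and figures matplotlib 3.10.9.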

Additional observations from a re-analysis of the deposited data

Results flagged for a closer look

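For 8 chains that reached 1 FPKM, baicalin and DMSO stood in opposite order under the 2 labels, and the counting interval of the ratio left out 1 under both. There was 1 library in each arm, so the difference between the labels was not tested. The difference with baicalin under the label luminal minus that under the label basal, on the log2 scale, was 1.75 for Col18a1, 1.49 for Col5a3 and Col1a1, 1.48 for Col8a1 and 0.97 for Col1a2. It was 0.77 for Col4a1, 0.53 for Col4a2 and -1.13 for Col4a5. With no FPKM added Col5a3 led, at 3.41, followed by Col1a1 at 2.42, Col8a1 at 2.21 and Col1a2 at 2.17, and Col18a1 was at 1.77. Col4a5 was the only one of these 8 that was higher with baicalin under the label basal. Other chains, such as Col3a1, at -0.69 and 0.11, and Col4a6, at 0.06 and -1.13, also differed in sign, with an interval that held 1 under a label. Both Col4a1 and Col4a2, which overlap at their starts, moved against Col4a5 under each label.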

How the results depend on the processing

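Of 128 values of counts, medians and ratios of class sums under the alternatives, 76 stayed within 1.5 times the reported count, or inside the interval of the median or ratio, 48 went beyond it and 4 ratios changed direction. The first kind holds moves such as 10 to 15 chains higher and a median of 0.34 to 0.68 at a pseudocount of 0.1 FPKM, between the labels with DMSO. Of 256 differences of single chains, 231 stayed within the width allowed by counting error, which is wide for low chains, and 25 did not. On centring, 3 differences near 0 changed sign, those of Col12a1 and Col4a4 with baicalin under the label luminal and of Col4a3 between the labels with baicalin. None of these 3 was beyond the threshold. In the libraries labelled basal, 2 chains were higher and 18 lower with baicalin at a pseudocount of 0.1 FPKM, 2 and 19 without one, 2 and 17 on TPM, and 0 and 1 at a threshold of 2. Of all genes, 6.31% were higher and 7.32% lower, 9.52% and 11.5%, 3.91% and 5.63%, and 0.231% and 0.742% at these settings. The chains' median was -0.98 at a pseudocount of 0.1 FPKM and -1.36 without one. Under the label luminal, 2 chains were higher at a pseudocount of 0.1 FPKM, 2 were higher and 13 lower without one, and 0 and 4 at a threshold of 2, against 5.91% of all genes higher, 8.76% and 8.64%, and 0.337% and 0.259%. Between the labels with DMSO, 5 chains were lower without a pseudocount, where the median was 0.80, and 5 were higher and 0 lower at a threshold of 2, against 10.8% of all genes lower, and 1.04% and 0.843%. With baicalin, 20 were higher at a pseudocount of 0.1 FPKM, 23 higher and 3 lower without one, 15 higher on TPM, and 3 higher and 0 lower at a threshold of 2, with medians of 1.18, 1.60 and 0.94 in the first 3 and 0.86 among chains with a mean FPKM of at least 1. Of all genes, 11.4% were higher at a pseudocount of 0.1 FPKM, 14.8% higher and 11.3% lower without one, 8.09% higher on TPM, and 1.36% higher and 0.332% lower at a threshold of 2.

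The ratio of class sums, baicalin to DMSO, was also taken without the chain of highest mean FPKM over the 4 libraries, which is Col11a1, Col4a5 or Col18a1. A single library can be led by another chain. Under the label basal it was 0.338 for fibrillar chains without Col11a1, 0.317 for other chains without Col18a1, and 0.888 for type IV chains without Col4a5, against 1.04 with it, a change of direction. Under the label luminal it was 1.11 for fibrillar chains, a change of direction, 0.839 for type IV chains and 0.364 for other chains. The ratio of luminal to basal labels with DMSO was 1.29 for fibrillar chains, 6.50 for other chains, and 0.824 for type IV chains, against 1.04 with Col4a5, a change of direction. With baicalin it was 7.46 for other chains. On TPM, the ratio of baicalin to DMSO under the label basal was 1.02 for type IV and 0.574 for other chains. That of the labels was 2.16 for fibrillar, 0.967 for type IV, a change of direction, and 2.51 for other chains with DMSO, and 0.742 for type IV and 2.92 for other chains with baicalin. Centred on the median, type IV and other chains were at 0.807 and 0.690 for baicalin to DMSO under the label luminal, at 1.02 and 2.64 for the labels with DMSO, and at 0.803 and 3.16 with baicalin. The type IV sum with baicalin under the label basal, and that of the labels with DMSO, thus have no settled direction. With 1 library per group there was no replicate to leave out. The labels give no replicate numbers that pair libraries. A fit of label and agent over all 4 libraries, which would average the cultures, was not run. For chains under 1 FPKM, few fragments make the intervals wide.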

Other observations

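Since the type IX chains and Col11a1 stood together, 10 genes known from cartilage were read as well. They were chosen after the chains' values were seen. Sox9, the transcription factor that directs cartilage formation and is also made in epithelia, was at 43.0 and 39.0 FPKM under the label basal with DMSO and baicalin, and at 40.2 and 43.2 FPKM under the label luminal. Its differences with baicalin were -0.14 and 0.10. Sox5 and Sox6, which act with Sox9 in cartilage, stayed under 1 FPKM in all 4 libraries, with highest levels of 0.920 and 0.377 FPKM. Cnmd, which encodes chondromodulin, was at 3.48 FPKM in the library labelled luminal with DMSO and at 0.0263 FPKM with baicalin, and at 0.0273 and 0.0268 FPKM under the label basal. Acan, Hapln1, Comp, Matn1, Matn3 and Chad, genes of the cartilage matrix, were at most 0.391 FPKM. Col2a1, the main fibrillar chain of cartilage, was at 0.0218 and 0.0213 FPKM under the label basal, and at 0.363 and 0.178 FPKM under the label luminal.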
